A study of Rattus norvegicus with 7 samples.

Results

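Immediate early genes are transcribed within minutes of a stimulus, without new protein synthesis, and 10 of them were followed here in the rat cerebellum: Fos, Fosb, Jun, Junb, Egr1, Nr4a1, Npas4, Ier2, Dusp1 and Arc. They were taken by name, through the RefSeq accession of their array probe, out of 15443 genes with a probe, and each had exactly 1 probe. In the rat assembly GRCr8 they lie on chromosomes 6 (Fos), 1 (Fosb and Npas4), 5 (Jun), 19 (Junb and Ier2), 18 (Egr1), 7 (Nr4a1 and Arc) and 10 (Dusp1), and span 1525 to 20892 genomic bases. The MDD group held 3 female Wistar pups aged 21 days whose dams ate a diet short of folate and vitamin B12 and reduced in choline, the nutrients that feed methyl group transfer. The CTRL group held 4 female Wistar pups of the same age whose dams ate a standard diet. Dams were on either diet from 1 month before pregnancy until weaning. RNA came from 20 mg of ground cerebellum, so it mixes all cell types of the tissue. Pups are called biological replicates, but dams and litters are not named, so the p-values below measure the spread between pups. Whether this covers the spread between dams, which ate the diets, is not known.

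In neurons, calcium entry and growth factor signals activate kinases that phosphorylate the factors CREB and SRF with its partners, which wait on the promoters of these genes. The first proteins made include the subunits of AP-1, in which a Fos family protein pairs with a Jun family protein, and other factors that switch on a later set of genes. The messengers are short-lived, and phosphatases such as the product of Dusp1 turn the kinases off again. Fos messenger is widely used as a sign of recent neuronal activity, in the cerebellum as elsewhere.

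All values are log2 intensities of 1-colour arrays relative to the array's own 75th percentile, so a value of 0 is that percentile and a difference of 1 is a doubling. The 75th percentile lay between 1140 and 2105 intensity units, and 74.1% to 79.6% of spots were well above background, with 0 saturated. Checked against markers of the labelled tissue, 10 of 10 granule neuron genes and 9 of 9 Purkinje cell genes measured were well above background on all 7 arrays. So were 18253 genes and probes in all, against 19991 tested, so these counts do not single out these cells. All arrays lay on 1 slide with 1 scan time. The MDD arrays all lay in row 2 of the slide with CTRL replicate 4, and the other CTRL arrays lay in row 1.

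Of the 10 genes, 9 could be tested and 3 were higher in MDD pups: Fosb, Junb and Ier2, by 2.18-fold, 1.64-fold and 1.55-fold. None was lower. Over all 19991 genes and unnamed probes tested, 20.4% were called, 12.7% higher and 7.72% lower, by limma at a Benjamini-Hochberg adjusted p under 0.05. The 3 calls were 33.3% of the 9 genes, a share that rests on few genes. The same 3 genes were those whose groups did not overlap, where 20.1% of all genes and probes had every MDD pup above and 16.4% every MDD pup below, 36.5% in all. At an unadjusted p under 0.05 by limma the counts were also 3 higher and 0 lower, against 4093 higher and 3667 lower of all 19991. The median log2 change of the 9 genes was 0.42, with 6 positive and 3 negative, against -0.03 over all genes and probes tested. In bulk tissue, fewer cells of a type and less RNA per cell cannot be told apart, and this holds for each difference below.

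**Figure D1:**
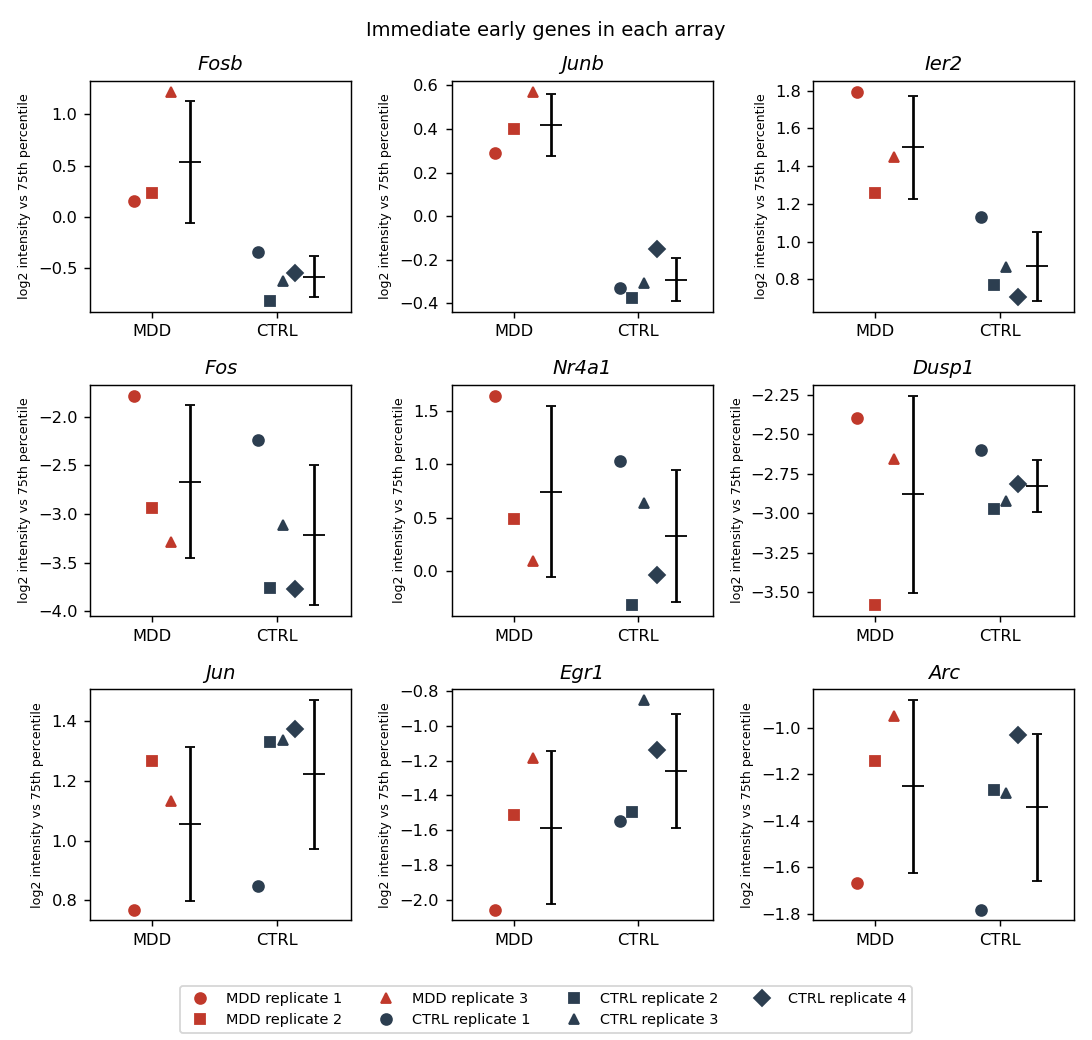
Log2 intensity of each immediate early gene relative to the array's 75th percentile (vertical axes), with 1 point per pup, for 3 MDD and 4 CTRL pups, and a bar at each group's mean. The MDD points of Fosb, Junb and Ier2 lie above all CTRL points, and the groups overlap for the other 6 genes tested.

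The AP-1 proteins come first. Fosb encodes a Fos family partner whose truncated form, ΔFosB, is long-lived and builds up with repeated stimulation. Fosb stood at 0.16, 0.23 and 1.22 in MDD replicates 1 to 3, against -0.34, -0.83, -0.63 and -0.55 in CTRL replicates 1 to 4. Every MDD pup was above every CTRL pup, and MDD replicate 3 was well above the other MDD pups. The means were 0.54 ± 0.60 in MDD pups (SD, n = 3) and -0.59 ± 0.20 in CTRL pups (SD, n = 4), a log2 change of 1.12 (SE 0.26, limma adjusted p = 0.0241). Without MDD replicate 3 the log2 change was 0.78 (adjusted p = 0.0260). The call was lost without CTRL replicate 2, 3 or 4 (adjusted p = 0.0588, 0.0591 and 0.0638), while the log2 change stayed between 1.04 and 1.14. The probe cannot tell the full-length Fosb messenger from the spliced form that encodes ΔFosB unless it lies in the spliced part, and its position was not used here.

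Junb encodes a Jun family protein that is a weaker activator than Jun at many AP-1 sites and can oppose it. Junb stood at 0.29, 0.40 and 0.57 in MDD replicates 1 to 3, against -0.33, -0.38, -0.31 and -0.15 in CTRL replicates 1 to 4. The groups did not overlap and both were tight. Means were 0.42 ± 0.14 in MDD pups (SD, n = 3) and -0.29 ± 0.10 in CTRL pups (SD, n = 4), a log2 change of 0.71 (SE 0.12, limma adjusted p = 0.0113). The call was kept without any one of the 7 arrays, with an adjusted p of 0.0146 to 0.0425. Junb was read from 1 spot per array, so no spot-to-spot error is known for it.

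The 250 bases before the start of Fosb and Junb are shown because these were 2 of the 3 genes called, and promoters of this class are known to carry sites for CREB, SRF and AP-1. They are RefSeq sequences of the rat assembly GRCr8, from a promoter table in which 7 of the 10 genes matched. The motifs searched on both strands were the cyclic AMP response element (CRE) TGACGTCA, its short form TGACG, the AP-1 site TGANTCA, the Egr site GCGNGGGCG, the TATA box TATAAA and the CArG box, the site of SRF. The short form lies within the full CRE. Capitals mark matches on either strand.
Fosb, chr1:88089185-88089434, minus strand: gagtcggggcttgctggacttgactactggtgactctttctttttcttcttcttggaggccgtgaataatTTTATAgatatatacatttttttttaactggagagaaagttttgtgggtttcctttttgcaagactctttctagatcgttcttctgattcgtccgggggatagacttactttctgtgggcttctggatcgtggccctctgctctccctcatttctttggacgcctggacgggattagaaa
Junb, chr19:40080876-40081125, plus strand: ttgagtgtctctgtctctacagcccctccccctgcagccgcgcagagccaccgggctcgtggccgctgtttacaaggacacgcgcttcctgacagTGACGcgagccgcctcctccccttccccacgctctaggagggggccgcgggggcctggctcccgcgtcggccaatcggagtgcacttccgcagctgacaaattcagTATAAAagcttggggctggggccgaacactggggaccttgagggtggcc
In the Fosb window the capitals are a TATA box on the opposite strand, 180 to 175 bases before the start. In Junb they are a short CRE 155 to 151 bases before the start and a TATA box at 49 to 44. A TATA box was found in 12.9% of 33469 rat promoter windows of this length and a short CRE in 18.2%. A match is a run of letters and was not tested as a site.

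Fos, the gene most used as a marker of neuronal activity, did not pass the test. Fos stood at -1.79, -2.94 and -3.28 in MDD replicates 1 to 3, against -2.24, -3.75, -3.11 and -3.76 in CTRL replicates 1 to 4. The groups overlapped, and replicate 1 was the highest array in each group. The log2 change was 0.55 (SE 0.45, limma adjusted p = 0.398), a fold of 1.46 with a 95% interval of 0.714 to 2.99. The interval spans both a fall and a near 3-fold rise, so these pups do not set the size of a Fos difference. Without MDD replicate 1 the log2 change was 0.11, and without CTRL replicate 1 it was 0.87.

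Jun encodes the main Jun family partner, which the kinase JNK activates. Jun stood at 0.77, 1.27 and 1.13 in MDD replicates 1 to 3, against 0.85, 1.33, 1.34 and 1.37 in CTRL replicates 1 to 4. The log2 change was -0.16 (SE 0.18, limma adjusted p = 0.526), with a 95% interval of -0.58 to 0.25. The groups overlapped, and replicate 1 was the lowest array in each group. Its log2 change was below 0 in all 19 alternatives, from -0.56 to -0.02, and passed in none.

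Junb and Jun compete for the same partners, so the difference between their log2 values was also taken within each array. It was -0.48, -0.87 and -0.56 in MDD replicates 1 to 3, against -1.18, -1.71, -1.64 and -1.52 in CTRL replicates 1 to 4. The groups did not overlap, and the mean difference was 0.88 higher in MDD pups. The two-sided exact permutation p was 0.0286, the smallest that the 35 splits of 7 arrays can give, and 0.0571 after adjustment over the 2 ratios tested. Most of this shift was that of Junb alone, at a log2 change of 0.71, with Jun at -0.16. It thus largely restates the Junb result. The same difference for Fosb and Fos was 0.58 higher in MDD pups (exact permutation p = 0.543). Probes differ in brightness, so only the change of such a difference between groups can be read, not its level.

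Among the other transcription factors, Egr1 encodes a zinc-finger protein that is induced in active neurons. Egr1 stood at -2.06, -1.51 and -1.19 in MDD replicates 1 to 3, against -1.55, -1.49, -0.85 and -1.14 in CTRL replicates 1 to 4. The groups overlapped, with MDD replicate 1 the lowest array. The log2 change was -0.33 (SE 0.24, limma adjusted p = 0.349), and it was below 0 in all 19 alternatives. The 95% interval of -0.88 to 0.23 holds no change as well as a fall. The Egr1 promoter is shown because it was the only one of the 7 with the CArG box, found in 1.497% of rat promoter windows.
Egr1, chr18:26736828-26737077, plus strand: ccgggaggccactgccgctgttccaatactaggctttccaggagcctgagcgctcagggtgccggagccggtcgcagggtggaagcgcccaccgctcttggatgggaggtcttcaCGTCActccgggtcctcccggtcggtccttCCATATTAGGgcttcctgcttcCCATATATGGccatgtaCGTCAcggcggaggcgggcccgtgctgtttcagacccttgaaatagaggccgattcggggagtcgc
Its capitals are CArG boxes at 105 to 96 and 83 to 74 bases before the start, and short CREs at 135 to 131 and 66 to 62.

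Nr4a1 encodes an orphan nuclear receptor induced by calcium and by cyclic AMP. Nr4a1 stood at 1.64, 0.49 and 0.10 in MDD replicates 1 to 3, against 1.03, -0.32, 0.64 and -0.04 in CTRL replicates 1 to 4. The groups overlapped widely. The log2 change was 0.42 (SE 0.42, limma adjusted p = 0.495), with a 95% interval of 0.681 to 2.62 for the fold. Without MDD replicate 1 the log2 change was -0.03.

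Npas4 encodes a factor that responds to calcium entry in neurons and shapes inhibitory synapses. It was not well above background on any MDD array, and on CTRL replicate 2 in 1 of 2 spots, or 1 of 14 spots in all. Its values ran from -8.14 to -7.60 in MDD pups and from -7.68 to -6.42 in CTRL pups. It was not tested, and no fold is given.

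The other 3 genes act outside AP-1. Ier2 encodes a small nuclear protein of the growth factor response. Ier2 stood at 1.80, 1.26 and 1.45 in MDD replicates 1 to 3, against 1.13, 0.77, 0.86 and 0.71 in CTRL replicates 1 to 4. The groups did not overlap, but the lowest MDD pup and the highest CTRL pup were only 0.13 apart. The SDs were 0.27 among MDD pups (n = 3) and 0.18 among CTRL pups (n = 4), and the log2 change was 0.63 (SE 0.17, limma adjusted p = 0.0340). Its call was the least stable of the 3, kept in 9 of 19 alternatives. It was lost without CTRL replicate 2, 3 or 4 or MDD replicate 1 or 3, with an adjusted p of 0.0648 to 0.0915.
Ier2, chr19:40399123-40399372, plus strand: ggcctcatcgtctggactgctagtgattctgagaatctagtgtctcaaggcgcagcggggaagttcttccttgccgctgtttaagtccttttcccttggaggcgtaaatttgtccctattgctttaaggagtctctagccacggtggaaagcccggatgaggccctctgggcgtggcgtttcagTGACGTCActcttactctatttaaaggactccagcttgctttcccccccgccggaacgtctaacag
The Ier2 promoter is shown because it held the full CRE, at 66 to 59 bases before the start, as 1.59% of rat promoter windows did. Dusp1 was the other of the 7 genes with the full CRE. A short CRE was found in 5 of the 7, and the AP-1 site in 0, against 6.34% of rat promoter windows.

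Dusp1 encodes a phosphatase that turns off MAP kinases. Dusp1 stood at -2.40, -3.58 and -2.66 in MDD replicates 1 to 3, against -2.60, -2.97, -2.92 and -2.81 in CTRL replicates 1 to 4. MDD replicate 2 was the lowest array and MDD replicate 1 the highest, so the CTRL values lay inside the MDD range. The log2 change was -0.05 (SE 0.26, limma adjusted p = 0.900), and its sign turned in 4 of 19 alternatives, quantile normalization (0.03) and the authors' deposited table (0.01) among them. It was 0.30 without MDD replicate 2 and -0.29 without MDD replicate 1, the ends of its range. The 95% interval of the fold was 0.634 to 1.47.

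Arc encodes a capsid-like protein that travels to active synapses and lowers their AMPA receptors. Arc stood at -1.67, -1.14 and -0.95 in MDD replicates 1 to 3, against -1.78, -1.27, -1.28 and -1.03 in CTRL replicates 1 to 4. The groups overlapped over most of their range. The log2 change was 0.09 (SE 0.22, limma adjusted p = 0.794), and the 95% interval of the fold was 0.745 to 1.52. In 14 of 19 alternatives the log2 change of Arc was above 0.

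In the authors' deposited table, whose columns name the group but not the pup, Fosb had intensities of 1925, 2008 and 4092 in MDD columns, against 1373, 981, 1119 and 1225 in CTRL columns. Junb had 2043, 2092 and 2423 in MDD columns, against 1290, 1384, 1437 and 1479 in CTRL columns. Ier2 had 5405, 3784 and 4253 in MDD columns, against 3557, 2851, 3059 and 2756 in CTRL columns. Groups did not overlap for any of the 3 there, and limma gave log2 changes of 1.11, 0.64 and 0.54 (adjusted p = 0.0169, 0.00904 and 0.0292). The table is another normalization of this series, not a second set of pups, and these 3 were the genes already called. Of all 19991 genes and probes, limma called 2390 higher and 1769 lower in it. How many of them did not overlap there was not counted.

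**Figure D2:**
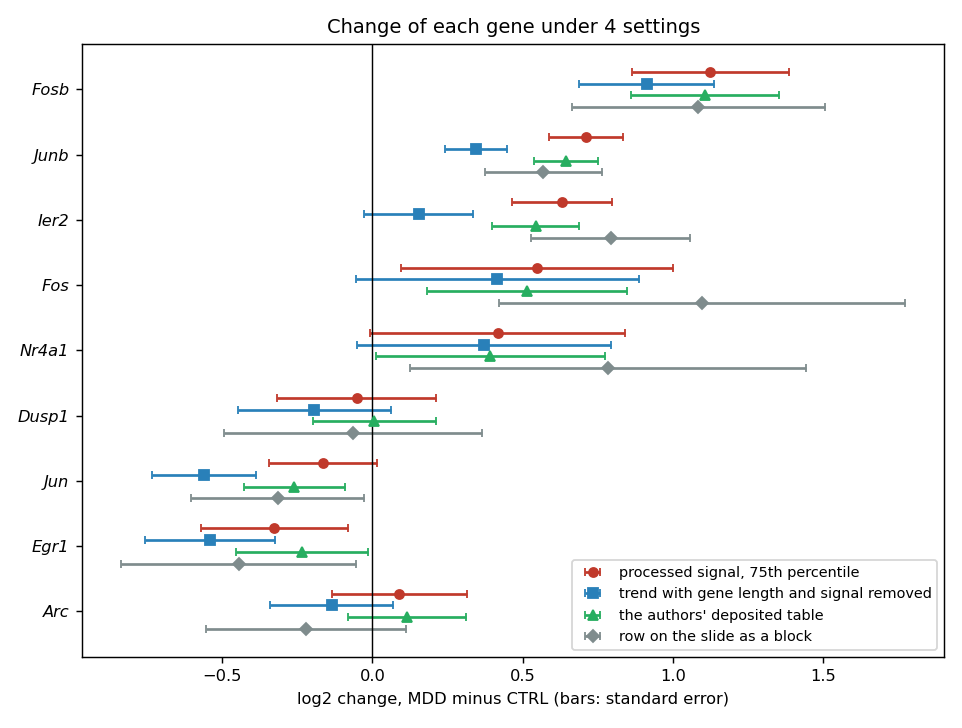
Log2 change of each gene, MDD minus CTRL (horizontal axis), under 4 of the settings tried, with bars for the standard error. Fosb, Junb and Ier2 lie right of 0 under all 4, and Ier2 falls to 0.15 and Junb to 0.34 when trends with gene length and signal are removed.

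Gene length and the row on the slide were set beside these results. Of the 9 genes tested, 5 (Fos, Jun, Junb, Ier2 and Dusp1) were in the shortest 10% of named genes, at up to 3363.5 genomic bases. Of the 1197 genes in that class, 26.4% were called higher, against 11.4% of all named genes. With trends of length and signal removed array by array, Fosb kept its call at 0.91 (limma adjusted p = 0.0416), Junb missed it at 0.34 (0.0640) and Ier2 missed it at 0.15 (0.583). With the slide row as a block, the log2 changes were 1.08 for Fosb, 0.57 for Junb and 0.79 for Ier2, and the adjusted p was 0.218, 0.185 and 0.175 by limma. That block rests on CTRL replicate 4 as the only CTRL array of row 2. Under quantile normalization Ier2 missed the threshold, at 0.51 (limma adjusted p = 0.0620).

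For each gene with repeat spots, pups of 1 group differed more than spots of 1 array did. Each pup had 1 array, so this spread also holds differences in RNA preparation, labelling and hybridization. Spots of 1 array cannot show these, and the same comparison was not made over all genes. The spread between pups within groups, as an SD of log2 values, was 0.747 for Fos and 0.699 for Nr4a1, at percentiles 98.3 and 97.8 of all genes and probes tested. Repeat spots of the same probe on 1 array had SDs of 0.069 and 0.082. Of the 9 genes, 8 spread more between pups than the median gene (0.218), the exception being Junb at 0.118. The spread between pups was 2.61 times the spot spread for Fosb and 10.9 times for Fos, the lowest and highest of the 8 genes with repeat spots.

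**Figure D3:**
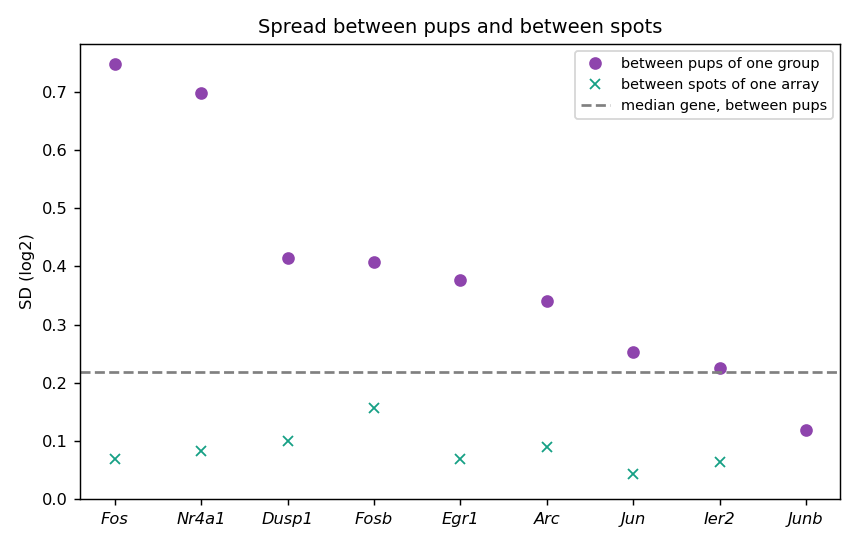
SD of log2 values between pups of the same group and between repeat spots of 1 array (vertical axis, log2 units), for each immediate early gene tested. Each pup had 1 array, so the spread between pups includes differences between arrays. It is largest for Fos at 0.747 and Nr4a1 at 0.699, and Junb has no repeat spots.

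Fos and Nr4a1 varied together. Over the 7 pups Pearson's r was 0.97 (exact permutation p = 0.00159) and Spearman's rho 0.93 (exact permutation p = 0.00675), and they were 0.0571 and 0.214 after adjustment over 36 pairs of the 9 genes. Without MDD replicate 1 and CTRL replicate 1, the arrays farthest from the median of Fos, r was 0.89, and with each group's mean removed it was 0.97. Ranked by likeness of their values centred over the 7 arrays, Nr4a1 was the closest of 19987 genes and probes to Fos, with a root mean square difference of 0.166 against 0.687 for Fos about its own mean. The nearest named genes outside the 10 were Flvcr2, a membrane transporter, at 0.232, Got1, a transaminase, at 0.233, Tap2, a peptide transporter, at 0.242, Mrpl18 at 0.255 and Ntsr1, a neurotensin receptor, at 0.291. None of these 5 passed the test between groups (limma adjusted p = 0.247 to 0.762). The 7 points of each such comparison share 1 slide and 1 scan. Ntsr1 was dim, at -6.18 and -6.56 in MDD replicates 2 and 3 and -6.93 in CTRL replicate 4. The dimmest spots well above background on those arrays were at -6.10, -6.04 and -6.27.

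Arc and Jun ran against Fos over the 7 pups, and how closely depended on how r was taken. The r of Arc with Fos was -0.81 (exact permutation p = 0.0492, 0.225 after adjustment), and -0.07 without MDD replicate 1 and CTRL replicate 1. With each group's mean removed and all pups kept it was -0.96. The r of Jun with Fos was -0.91 over all pups (exact permutation p = 0.0171, 0.205 after adjustment) and -0.41 without those 2, and it was -0.90 with group means removed. The 2 pups left out hold the highest Fos values of their groups, so the 5 that remain span less of its range. Of the 36 pairs, 0 passed after adjustment.

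**Figure D4:**
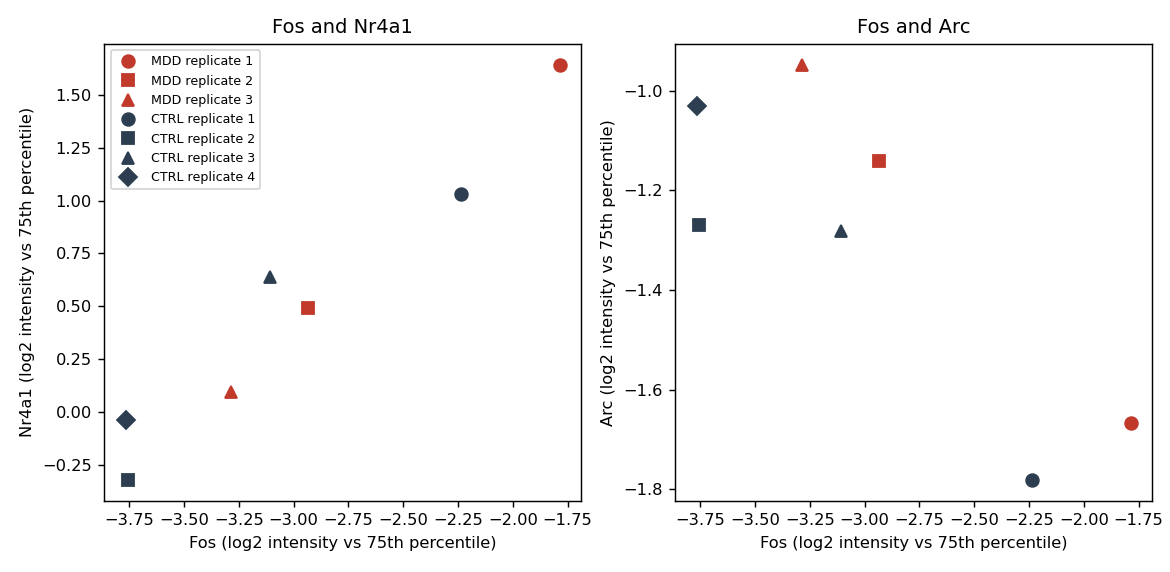
Nr4a1 against Fos and Arc against Fos, in log2 intensity relative to the 75th percentile (both axes), with 1 point per pup, coloured by group and shaped by replicate. Nr4a1 rises with Fos over all 7 pups (r 0.97), and Arc falls with Fos (r -0.81 over all pups, -0.96 with group means removed, and -0.07 without replicate 1 of both groups).

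Other genes of the pathway were read as lists, beside the 12.7% higher, 7.72% lower and median of -0.03 over all genes and probes. At an unadjusted p under 0.05 by limma, 4093 of all 19991 were higher and 3667 lower. Of 18 other immediate early genes tested of 20, most of them transcription factors, 1 was higher and 1 lower. Their median log2 change was 0.04. The higher one was Ier3, a short-lived nuclear protein (0.72, limma adjusted p = 0.0272). The lower one was Klf6, a zinc-finger factor (-0.45, limma adjusted p = 0.0358). Jund was at 0.34 and Egr3 at 0.03, and neither passed. The sign of Jund turned under quantile normalization (-0.09), in the authors' deposited table (-0.03) and with trends removed (-0.28). Of 26 other activity-regulated effectors tested of 27, 2 were higher and 0 lower by limma (4 and 3 at an unadjusted p under 0.05), the kinase Plk3 at 0.42 and the small GTPase Arl4d at 0.59, with a median of 0.01. Homer1, a synaptic scaffold, was at -0.42 and Bdnf, a growth factor, at -0.02, and neither passed. The sign of Bdnf turned in 10 of 19 alternatives, and it was 0.13 under quantile normalization and 0.03 with median scaling.

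Of 28 kinases and factors upstream tested of 36, 1 was higher and 2 lower, with a median of -0.16: Map2k2, a kinase of the ERK chain, at 0.70 (adjusted p = 0.0152), and the factors Atf1 at -0.54 and Mef2a at -0.47. Srf was at 0.07 and Creb1 at -0.19, and neither passed. The sign of Srf turned in 4 of 19 alternatives, quantile normalization (-0.10) and the authors' deposited table (-0.06) among them. Of 18 feedback and messenger decay genes tested of 23, Dusp14, a MAP kinase phosphatase, rose by 0.63 (adjusted p = 0.0108) and Dusp6 by 0.41, and Cnot7, a deadenylase, was lower at -0.52 (adjusted p = 0.0178), with a median of -0.02. Dusp14 kept its call in 17 of 19 alternatives, Cnot7 in 15, Map2k2 in 14, Ier3 in 11, Klf6 and Plk3 in 9 each, Arl4d, Atf1 and Dusp6 in 6 each, and Mef2a in 4. Map2k2 lost its call under quantile normalization (0.30) and in the authors' deposited table (0.31), among others. Arl4d lost it with normexp (0.23) and in the authors' deposited table (0.26). With gene length and signal trends removed, Dusp14 (0.57), Cnot7 (-0.56), Map2k2 (0.53), Klf6 (-0.59) and Arl4d (0.59) passed, while Ier3 (0.44), Plk3 (0.25), Dusp6 (0.11), Atf1 (-0.45) and Mef2a (-0.23) did not.

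Markers of other cells and of acute stress were read beside these genes, and beside the same counts over all genes and probes. Of 10 microglial genes tested, 6 were higher and 1, Cx3cr1, lower. Their median log2 change was 0.66, and they had a summed level, in units of the 75th percentile, of 13.01 to 18.04 in MDD pups and 9.15 to 9.90 in CTRL pups. Of 12 heat shock and acute stress genes tested of 15, 2 were higher, Cdkn1a (0.76, adjusted p = 0.0461) and Hspe1 (0.47, adjusted p = 0.0482), and 0 lower by limma (4 and 0 at an unadjusted p under 0.05), with a median log2 change of 0.12. The 12 genes had a summed level of 53.7 to 69.7 in MDD pups and 42.4 to 47.1 in CTRL pups. Bright probes weigh most in this linear sum, Cdkn1a and Hspe1 among them. Their mean log2 values were 4.48 and 3.99 in MDD pups, and 3.72 and 3.52 in CTRL pups. The sum thus largely restates these 2 calls, and 7 of the 12 log2 changes were above 0. Cdkn1a and Hspe1 kept their calls in 6 and 5 of 19 alternatives. Cdkn1a was 0.28 under quantile normalization and in the authors' deposited table, 0.42 with trends removed, 0.46 as the mean of its 2 probes and 0.47 without MDD replicate 3, and passed in none of these. Hspe1 was 0.05 under quantile normalization, 0.07 in the authors' deposited table and -0.07 with trends removed, and passed in none of these. Of 10 granule neuron markers 1 was higher (Calb2) and 3 lower (Gabra6, Pax6 and Fat2), with 8 of 10 log2 changes below 0 and a median of -0.40. Their summed level, a linear sum in which bright probes weigh most, was 109 to 125 in MDD pups and 115 to 122 in CTRL pups. Of 8 GABAergic interneuron markers 2 were higher (Pvalb and Sst) and 1 lower (Gad2), with 5 of 8 log2 changes below 0 and a median of -0.32. Their summed level was 89.8 to 128 in MDD pups and 60.5 to 70.0 in CTRL pups. This sum was mainly Pvalb, with a mean log2 value of 6.40 in MDD pups and 5.74 in CTRL pups. The next brightest, Sst, was at 3.59 and 2.78, so the sum mostly restates the Pvalb result. Blood markers summed to 175, 135 and 385 in MDD replicates 1 to 3 and to 104 to 182 in CTRL pups, with 0 of 4 passing by limma (0 at an unadjusted p under 0.05). MDD replicate 3, the pup with the highest Fosb and Junb, also had the highest sums of choroid plexus markers, at 272 against 113 to 200 in the other MDD pups and 96.5 to 132 in CTRL pups. Its sum of oligodendrocyte markers was 365, against 235 to 267 in the other MDD pups and 249 to 269 in CTRL pups. The choroid plexus sum was mainly Ttr, at a mean log2 value of 7.51 in MDD pups and 6.79 in CTRL pups. The oligodendrocyte sum was mainly Mbp, at 7.68 and 7.53. Sums of granule neuron, GABAergic interneuron, microglial, endothelial and mural, and blood markers were also highest in MDD replicate 3. Those of Purkinje cell, oligodendrocyte precursor and meningeal markers were not, and that of astrocyte markers, at 80.2, was the lowest of the 7 arrays. Its array had the lowest 75th percentile (1140) and the smallest weight in the fit with array weights (0.31, against 0.67 to 2.09). The measured genes of these lists were all well above background on all 7 arrays, so none was at 0. Their part in the Fosb, Junb and Ier2 results was not tested.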

How the data were processed

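Cerebellar RNA of 7 pups was run on Agilent 1-colour arrays (design 028279). Per the file headers, the deposited tables hold linear intensities of spots, made by Feature Extraction 10.7.3.1, whose processed signal is background-subtracted. Per the file headers, deposited flags of the scanner software score each spot 0 or 1. The authors' normalized table holds intensities whose columns show the group but not the pup, with a normalization not given in the sources used here. Groups came from the sample titles. The genes, the lists and the rule for naming genes were chosen with earlier results of these data known.

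Processed signals were scaled to the 75th percentile of their array, on the log2 scale. Control spots and outlier-flagged spots were left out, and spots of a probe were averaged. Detection on 3 or more of the 7 arrays, with 50% or more of a probe's spots well above background, kept 22255 of 30367 probes. Symbols came from accessions through a RefSeq table of GRCr8 (18355 probes). The brightest kept probe stood for a gene. The MDD minus CTRL fit used limma 3.58.1 under R 4.3.3 (lmFit then eBayes, two-sided), with Benjamini-Hochberg adjustment over 19991 genes and probes and 5 residual degrees of freedom. The code was tested on simulated arrays. From other lists, up to 6 genes that passed, by smallest p, and 6 set genes were named. The normexp alternative used the median spot signal in place of the mean signal. Alternatives also covered scaling, filter, probe choice, blocks, trends, array weights and leaving out each array.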

Additional observations from a re-analysis of the deposited data

Results flagged for a closer look

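Jun in CTRL replicate 1 stood apart from the rest of its group. It was 0.85, against 1.33 for the next lowest CTRL pup and a group range of 0.85 to 1.37, and the gap made up 0.917 of that range, above Dixon's 95% critical value for 4 samples. Of 27 genes whose CTRL values were examined, 1 met this, and chance gives about 1 in 20 groups. Fos was the highest of the CTRL pups on the same array, at -2.24.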

How the results depend on the processing

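Of the 3 higher calls among the 9 genes, 1 (Junb) remained with no filter on dim probes and 1 (Fosb) with length and signal trends removed, and 0 with the replicate number or the slide row as a block, while leaving out each array gave 1 to 3. Lower calls were 0 throughout. Over all genes, the 2538 higher and 1543 lower calls became 1205 and 388 with no filter, 0 and 0 with the replicate block (3488 and 2671 at an unadjusted p under 0.05), 0 and 1 with the row block, and 782 and 557 of 11966 named genes with trends removed. Lower calls were 953 with normexp and 856 with array weights. Leaving out each array gave 799 to 2905 higher and 223 to 2329 lower calls, lowest without CTRL replicate 4 and highest without MDD replicate 2.

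Fosb, Junb and Ier2 were above 0 in all 19 alternatives, and passed in 13, 16 and 9 of them. Fosb ranged from 0.78 to 1.31, Junb from 0.34 to 0.78 and Ier2 from 0.15 to 0.79. Quantile normalization took the call from Ier2 (adjusted p = 0.0620), and no filter took it from Fosb and Ier2 (0.0556 and 0.0732), by limma. Signs turned for Hspe1 with trends removed (-0.069) and for Fosb over Fos without MDD replicate 3 (-0.075, in a range of -0.075 to 1.21 over the arrays left out), and the cause was not tested. Among named genes that did not pass, signs turned in 10 of 19 alternatives for Bdnf, 5 for Arc, 4 each for Dusp1 and Srf, 3 for Jund, 1 each for Nr4a1 and Creb1, and 4 of 18 for Egr3.

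The replicate numbers are not stated to mark a shared litter or day. Same-numbered pups had deviations correlated at 0.09, -0.18 and 0.22, and 1 of 3 MDD and 1 of 3 CTRL arrays correlated best with its own number. So few pairs cannot show whether same-numbered pups share a litter or day. Replicate 1 was the highest array of both groups for Fos, Nr4a1, Ier2 and Dusp1, and the lowest of both for Jun, Egr1 and Arc. It was neither for Fosb and Junb. With the replicate number as a block, which leaves out CTRL replicate 4, log2 changes were 1.14 for Fosb, 0.76 for Junb and 0.58 for Ier2. Their adjusted p was 0.0710, 0.0667 and 0.0866 by limma. The number of arrays limits the precision, and Npas4 was too dim to measure.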
